A study of Homo sapiens with 8 samples.

Results

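MIR100HG and MIR99AHG, the long noncoding host genes of the miR-99, let-7 and miR-125 microRNA clusters on chromosomes 11 and 21, are described here. They were chosen by name, as the rows whose Ensembl IDs, ENSG00000255248 and ENSG00000215386, belong to these genes, and make up 2 of the 15469 loci with values. The libraries came from human liver cancer lines treated with JQ1 or with vehicle. JQ1 is a small-molecule bromodomain inhibitor. The labels give 4 groups with 2 replicates each: HepG2 cells with JQ1, HepG2 cells with DMSO as vehicle, LM3 cells with JQ1, and LM3 cells with DMSO as vehicle. HepG2 is a widely used human liver tumour line, and both lines are labelled as hepatocellular carcinoma. The labels give no dose or duration of JQ1 and do not say whether replicates were separate cultures, so p-values cover only the variation among these libraries, and part or all of it may be technical.

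A microRNA host gene is transcribed as a long primary RNA. The hairpins inside it are cut out in the nucleus by Drosha and then trimmed in the cytoplasm by Dicer, and the mature microRNA guides Argonaute to target messenger RNAs, chiefly through its seed, bases 2 to 8. The let-7 family is known as a repressor of RAS, MYC and HMGA2 messenger RNAs, miR-99 and miR-100 as repressors of MTOR, and miR-125b as a regulator of apoptosis and of blood cell development. The libraries measured long RNA, so the values below are of the host transcripts, and mature microRNA was not measured.

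Each host holds 1 member of each of the 3 families. MIR100HG (GRCh38 chr11:122028325-122556721, minus strand, 528 kb) carries MIR100, MIRLET7A2 and MIR125B1, and MIR99AHG (chr21:15928296-16645467, plus strand, 717 kb) carries MIR99A, MIRLET7C and MIR125B2. The mature 5p sequences below, from RefSeq on GRCh38.p14, show how alike the products of the clusters are. Each is written 5′ to 3′ with the seed in capitals.
miR-100-5p, from MIR100HG: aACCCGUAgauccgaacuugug
miR-99a-5p, from MIR99AHG: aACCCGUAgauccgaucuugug
let-7a-5p, from MIR100HG: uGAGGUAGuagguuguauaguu
let-7c-5p, from MIR99AHG: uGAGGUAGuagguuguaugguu
miR-125b-5p, from both hosts: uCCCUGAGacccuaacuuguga
miR-100-5p and miR-99a-5p share the seed ACCCGUA and differ by A16U, counted from 1 at the 5′ end with the base of miR-100-5p first. The let-7 members share the seed GAGGUAG and differ by A19G, with the base of let-7a-5p first. The miR-125b-5p sequences from both chromosomes are identical.

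In GENCODE 29, all 6 hairpins lie in introns of every host transcript that spans them. The MIR100HG hairpins lie 404 kb (MIR100), 410 kb (MIRLET7A2) and 457 kb (MIR125B1) from the 5′ end of the host's row, and 8 of its 39 transcripts span all 3. Those of MIR99AHG lie 611 kb (MIR99A), 612 kb (MIRLET7C) and 662 kb (MIR125B2) from the 5′ end, and 13 of its 21 transcripts span all 3. Exons of all transcripts cover 19.4 kb of MIR100HG, or 3.67% of its span, and 11.4 kb of MIR99AHG, or 1.58%.

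Library sums lay between 29369 and 35742 FPKM, and the deposited values are not counts, so the depth of each library is unknown. Across loci, libraries of one group correlated at a Pearson r of 0.961 to 0.979, and JQ1 libraries with vehicle libraries of the same line at 0.896 to 0.915. Of 13 liver marker lncRNAs, 9 had values, and 1 or 2 reached 1 FPKM in each library. H19 made up nearly all of their summed level, with 2234.1 and 2101.04 FPKM in HepG2 JQ1 and 2037.71 and 2248.65 FPKM in HepG2 vehicle libraries, and 348.05 and 309.7 FPKM in LM3 JQ1 and 310.22 and 347.06 FPKM in LM3 vehicle libraries, which overlapped in both lines. The other liver markers, led in HepG2 by CPS1-IT1, summed to 2.66 and 2.77 FPKM in HepG2 JQ1 and 9.45 and 9.68 FPKM in HepG2 vehicle libraries, and to 1.29 and 1.16 FPKM in LM3 JQ1 and 2.21 and 2.36 FPKM in LM3 vehicle libraries. These sums were thus lower with JQ1 in both lines, as the hosts were, but not every marker was. CPS1-IT1 was lower with JQ1 in both lines, and HULC overlapped in both. LINC01554 was higher, with 0.3 and 0.31 FPKM in HepG2 JQ1 and 0.21 and 0.21 FPKM in HepG2 vehicle libraries. In LM3 it had 0.25 and 0.18 FPKM with JQ1, against 0.15 and 0.14 FPKM with vehicle. HNF4A-AS1 was listed at 0 in every JQ1 library and in both LM3 vehicle libraries.

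Markers of other cell types were low. The fibroblast and mesenchymal list, with values for 7 of 8, summed to 8.03 and 9.65 FPKM in LM3 JQ1 and 7.74 and 7.81 FPKM in LM3 vehicle libraries, most of it MIR503HG, and to 2.73 and 2.85 FPKM in HepG2 JQ1 and 2.78 and 2.48 FPKM in HepG2 vehicle libraries. It was higher with JQ1 in LM3 and overlapped in HepG2, and LINC01614 was listed at 0 in every LM3 library. The blood and immune list, with values for 7 of 9, summed to 1.33 and 1.41 FPKM in LM3 JQ1 and 1.46 and 1.9 FPKM in LM3 vehicle libraries, and to 1.4 and 1.47 FPKM in HepG2 JQ1 and 1.5 and 1.6 FPKM in HepG2 vehicle libraries, lower with JQ1 in both lines, with LINC00861 at 0 to 0.01 FPKM. The endothelial list, with values for 2 of 3, stood at 0 to 0.12 FPKM, with SENCR listed at 0 in 7 of 8 libraries. The part of these markers in the results below was not tested.

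Both hosts were lower with JQ1 in both lines. MIR100HG had 15.39 and 16.65 FPKM in HepG2 JQ1 libraries, against 31.26 and 28.62 FPKM in HepG2 vehicle libraries. Both JQ1 libraries lay below both vehicle libraries, and the means were 16 ± 0.891 FPKM with JQ1 and 29.9 ± 1.87 FPKM with vehicle (SD, n = 2 each), a level 53.5% of vehicle. In LM3 the gene had 15.17 and 17.04 FPKM with JQ1, against 38.04 and 39.84 FPKM with vehicle. The groups again did not overlap, with 16.1 ± 1.32 FPKM in JQ1 and 38.9 ± 1.27 FPKM in vehicle libraries (SD, n = 2 each), or 41.4% of vehicle. The share of all loci whose groups separate this way is not given here, so separation of the libraries adds no support, here or below. In these bulk libraries, fewer cells that express a gene and less of its RNA per cell cannot be told apart.

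MIR99AHG was the less abundant host in every library. It had 7.08 and 6.85 FPKM in HepG2 JQ1 libraries, against 16.54 and 14.68 FPKM in HepG2 vehicle libraries. The groups did not overlap, and the means of 6.96 ± 0.163 FPKM with JQ1 and 15.6 ± 1.32 FPKM with vehicle (SD, n = 2 each) put the JQ1 level at 44.6% of vehicle. LM3 cells had 1.57 and 2.47 FPKM with JQ1, against 6.25 and 6.77 FPKM with vehicle. This was the widest relative spread between replicates of either host, and still both JQ1 libraries lay below both vehicle libraries, at 2.02 ± 0.636 FPKM with JQ1 and 6.51 ± 0.368 FPKM with vehicle (SD, n = 2 each), or 31% of vehicle.

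**Figure D1:**
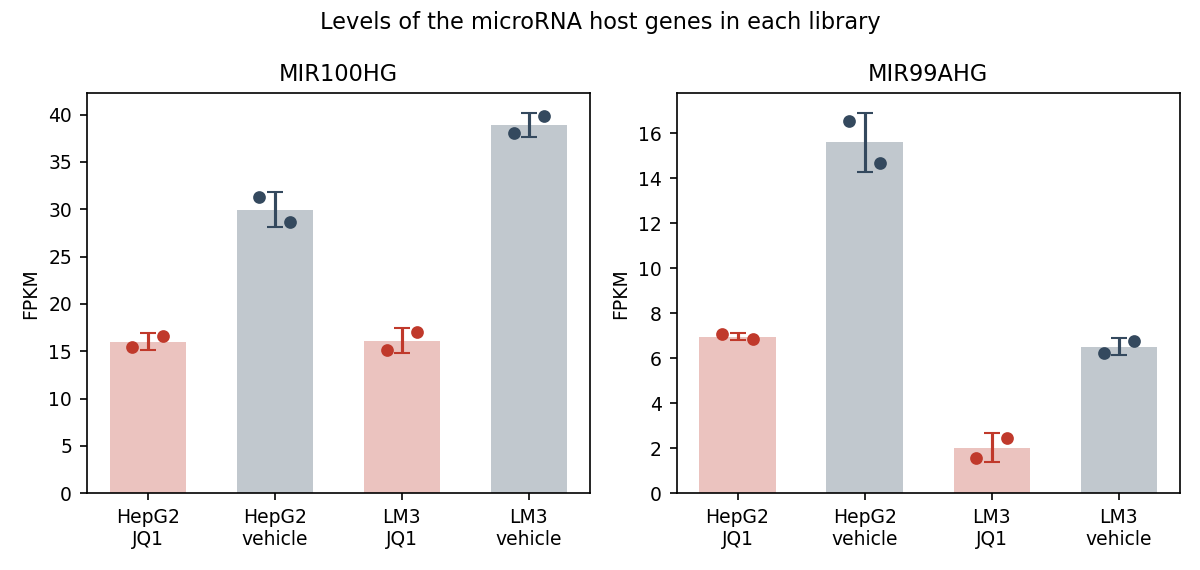
Level of each host in FPKM, by line and treatment. Points are libraries, bars are means and error bars are SD (n = 2); in each line the JQ1 libraries of both hosts lie below the vehicle libraries, and the JQ1 means of MIR100HG are 16 FPKM in HepG2 and 16.1 FPKM in LM3.

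Fold changes were tested with limma on log2(FPKM + 0.5), as a two-sided test adjusted by Benjamini-Hochberg over every locus that averaged 0.5 FPKM or more in a line and a threshold of 0.05. The scale understates the change of low loci. MIR100HG fell by 0.88 in HepG2 on this log2 scale (SE 0.085, limma adjusted p = 0.00836) and by 1.25 in LM3 (SE 0.10, limma adjusted p = 0.00734). MIR99AHG fell by 1.11 in HepG2 (SE 0.089, limma adjusted p = 0.00697) and by 1.50 in LM3 (SE 0.20, limma adjusted p = 0.015). Both hosts thus passed in both lines, where 14.2% of 5906 loci tested in HepG2 and 15.4% of 6474 in LM3 were called lower. Without the filter on low values, MIR100HG in HepG2 and MIR99AHG in LM3 missed the threshold, at limma adjusted p = 0.0524 and 0.113. Leaving out either HepG2 JQ1 library, or any 1 of the 4 LM3 libraries, left no locus called in that line, the hosts included, while both hosts stayed called in HepG2 without either vehicle library.

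Being called lower was common in these data, and the size of the change on the log2 scale placed the hosts nearer the low end. That scale understates the change of low loci, so the places below depend in part on level. Among the 1922 Ensembl loci tested in HepG2, 79 (4.11%) had a lower fold change than MIR100HG and 29 (1.51%) a lower one than MIR99AHG. Among 2063 Ensembl loci in LM3, 34 (1.65%) lay below MIR100HG and 13 (0.63%) below MIR99AHG. The median Ensembl locus changed by -0.15 in LM3 and by -0.052 in HepG2, on the log2 scale.

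**Figure D2:**
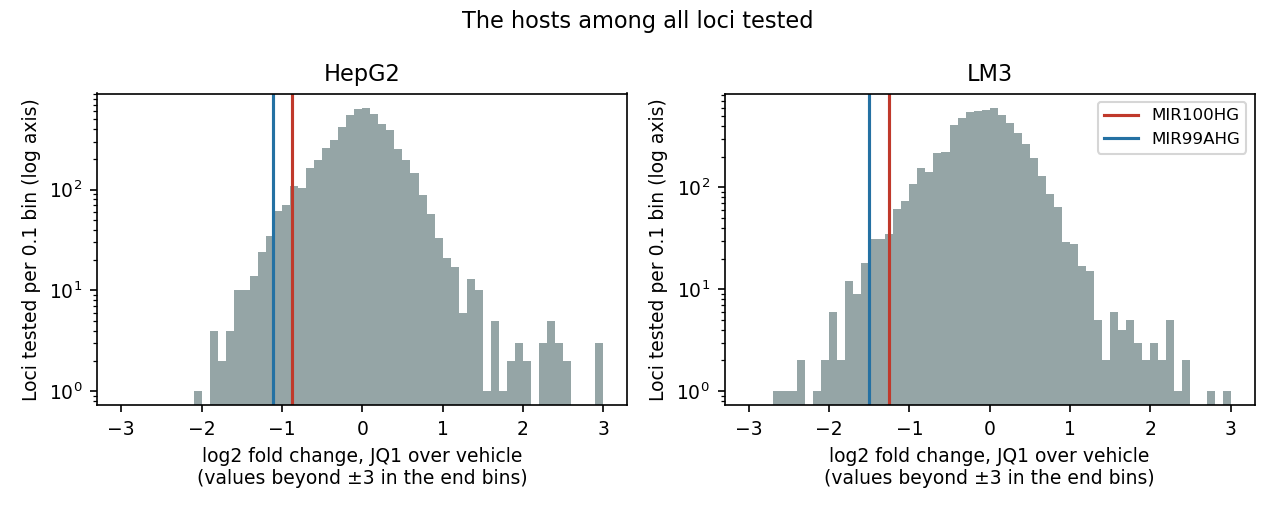
Number of loci tested per 0.1 bin of log2 fold change, JQ1 over vehicle, in each line, on a log count axis. Vertical lines mark MIR100HG (-0.88 in HepG2, -1.25 in LM3) and MIR99AHG (-1.11 in HepG2, -1.50 in LM3), both on the falling side of the distribution.

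By level, MIR100HG stood in rank 65 among the 9585 Ensembl loci with values in HepG2 JQ1 libraries and in rank 35 in HepG2 vehicle libraries, from group means in FPKM. In LM3 it held rank 64 with JQ1 and rank 27 with vehicle. MIR99AHG held rank 154 with JQ1 and 71 with vehicle in HepG2, and rank 600 with JQ1 and 196 with vehicle in LM3. It was the only one of the pair whose vehicle level was lower in LM3 than in HepG2, 6.51 against 15.6 FPKM, while MIR100HG had 38.9 FPKM in LM3 and 29.9 FPKM in HepG2 vehicle libraries. Levels in different lines come from tables that may have been normalized separately, so these were not tested. The ratio of MIR100HG to MIR99AHG within a library needs no such scale. It was 9.66 and 6.9 in LM3 JQ1 and 6.09 and 5.88 in LM3 vehicle libraries, and 2.17 and 2.43 in HepG2 JQ1 and 1.89 and 1.95 in HepG2 vehicle libraries. Every LM3 library had a higher ratio than every HepG2 library, and within each line both JQ1 libraries had a higher ratio than both vehicle libraries.

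The fall was larger in LM3 than in HepG2 for both hosts, but neither difference passed the test. The effect in LM3 minus that in HepG2, fitted with limma over all 8 libraries, was -0.37 for MIR100HG (SE 0.13, 95% confidence interval -0.68 to -0.062, unadjusted p = 0.0255, limma adjusted p = 0.343). For MIR99AHG it was -0.39 (SE 0.24, 95% confidence interval -0.97 to 0.18, limma adjusted p = 0.582), and it was -0.13 without LM3 JQ1 replicate 1 and -0.65 without LM3 JQ1 replicate 2. Of 5035 loci tested for this difference, 0.218% were called. The intervals do not show that the lines respond alike.

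Loci of the authors' own naming, LXLOC, and other Ensembl loci lie inside the hosts on the same strand. The strand setting of the counting is not given in the sources used here, so reads may be shared between these loci and the hosts, and their values are uncertain and are not independent of the hosts' own. Inside MIR100HG, LXLOC_010996 spans 98.7 kb upstream of the hairpins (chr11:122282312-122381016, minus strand), with 1.41% of it in host exons. It had 3.74 and 3.83 FPKM in HepG2 JQ1 libraries, against 8.53 and 7.67 FPKM in HepG2 vehicle libraries, and fell by 1.00 on the log2 scale (limma adjusted p = 0.00749). In LM3 it had 3.57 and 3.27 FPKM with JQ1, against 10.14 and 10.65 FPKM with vehicle, and fell by 1.48 (limma adjusted p = 0.00563). The locus was thus at 46.7% of vehicle in HepG2 and 32.9% in LM3, with no overlap of the groups in either line.

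The other loci inside MIR100HG were small or low. AP000755.1 had 0.05 and 0.4 FPKM with JQ1 and 0.78 and 0.71 FPKM with vehicle in HepG2, where it was under the filter. In LM3 it had 0.34 and 0.1 FPKM with JQ1 and 1.02 and 1.02 FPKM with vehicle, and fell by 1.10 (limma adjusted p = 0.0293), a call that ended with a pseudocount of 0.1, under quantile normalization, without the filter, and in both leave-one-out fits in which it was tested. It passed the filter through its vehicle libraries. LXLOC_011000, of 0.28 kb, was not called in either line. Its HepG2 libraries had 0.54 and 2.42 FPKM with JQ1 and 1.97 and 2.19 FPKM with vehicle, with overlap, and its LM3 libraries 0.49 and 2.21 FPKM with JQ1 and 3.66 and 5.11 FPKM with vehicle.

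All 7 LXLOC loci inside MIR99AHG on its strand lie in its introns, with no base in its GENCODE 29 exons, 368 to 654 kb from its 5′ end. In HepG2 they had 0.23 to 0.62 FPKM in JQ1 libraries, against 0.65 to 1.8 FPKM in vehicle libraries, and in LM3 0.04 to 0.21 FPKM in JQ1 libraries, against 0.2 to 0.87 FPKM in vehicle libraries. For each of the 7, in each line, both JQ1 libraries lay below both vehicle libraries. The share of all loci that separate this way is not given here, and the 7 lie in the same gene, so that count adds no support. The JQ1 level was 19.8 to 46.9% of vehicle in HepG2 and 15.7 to 38.5% in LM3. All 7 were tested and called lower in HepG2, where 5 of them had a JQ1 mean below 0.5 FPKM and so passed the filter through the vehicle libraries, and that count adds no support. In LM3, 1 passed the filter, LXLOC_035150, again through its vehicle libraries, and its call there adds no support.

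Along the gene, the 3 loci 368 to 380 kb from the 5′ end, 225 kb or more upstream of the MIR99A hairpin, stood at 19.8 to 24.2% of vehicle in HepG2. The most 5′ of them, LXLOC_035150 (chr21:16296251-16302147, plus strand), had 0.39 and 0.46 FPKM with JQ1, against 1.8 and 1.71 FPKM with vehicle, and is one of the 5 that passed the filter through the vehicle libraries. From group means, the 4 loci 572 to 654 kb from the 5′ end stood at 28.5 to 46.9% in HepG2, each above the first 3. The lowest of them, LXLOC_035157, had 0.25 and 0.24 FPKM with JQ1, against 1.07 and 0.65 FPKM with vehicle, so its place is uncertain. LXLOC_035149 (chr21:16548221-16555759), 8.31 kb beyond the MIRLET7C hairpin, had 0.6 and 0.62 FPKM with JQ1, against 1.55 and 1.49 FPKM with vehicle (log2 fold change -0.86, SE 0.088, limma adjusted p = 0.00864). In LM3 the percentages of the first 3, 16.7 to 21.4%, lay within those of the last 4, 15.7 to 38.5%. JQ1 values there were 0.04 to 0.21 FPKM, too low for these percentages to show whether LM3 has the order seen in HepG2. The difference along the gene was not tested.

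Outside the hosts, within 250 kb, no tested locus was called. Upstream of MIR99AHG, LXLOC_035147, on the same strand at -38.1 kb from its 5′ end, had 0.66 and 0.7 FPKM with JQ1 and 0.5 and 0.55 FPKM with vehicle in HepG2, and 1.51 and 1.36 FPKM with JQ1 and 1.15 and 1.02 FPKM with vehicle in LM3. Both JQ1 libraries were above both vehicle libraries in each line, without passing the test (limma adjusted p = 0.209 in HepG2 and 0.114 in LM3). Beside MIR100HG, the values of ENSG00000286044 overlapped between the groups, with a JQ1 level 102% of vehicle in HepG2 and 92.6% in LM3. On the opposite strand, AP000962.1 lies inside MIR99AHG and was listed at 0 FPKM in 7 of the 8 libraries and at 0.03 FPKM in 1 HepG2 vehicle library.

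**Figure D3:**
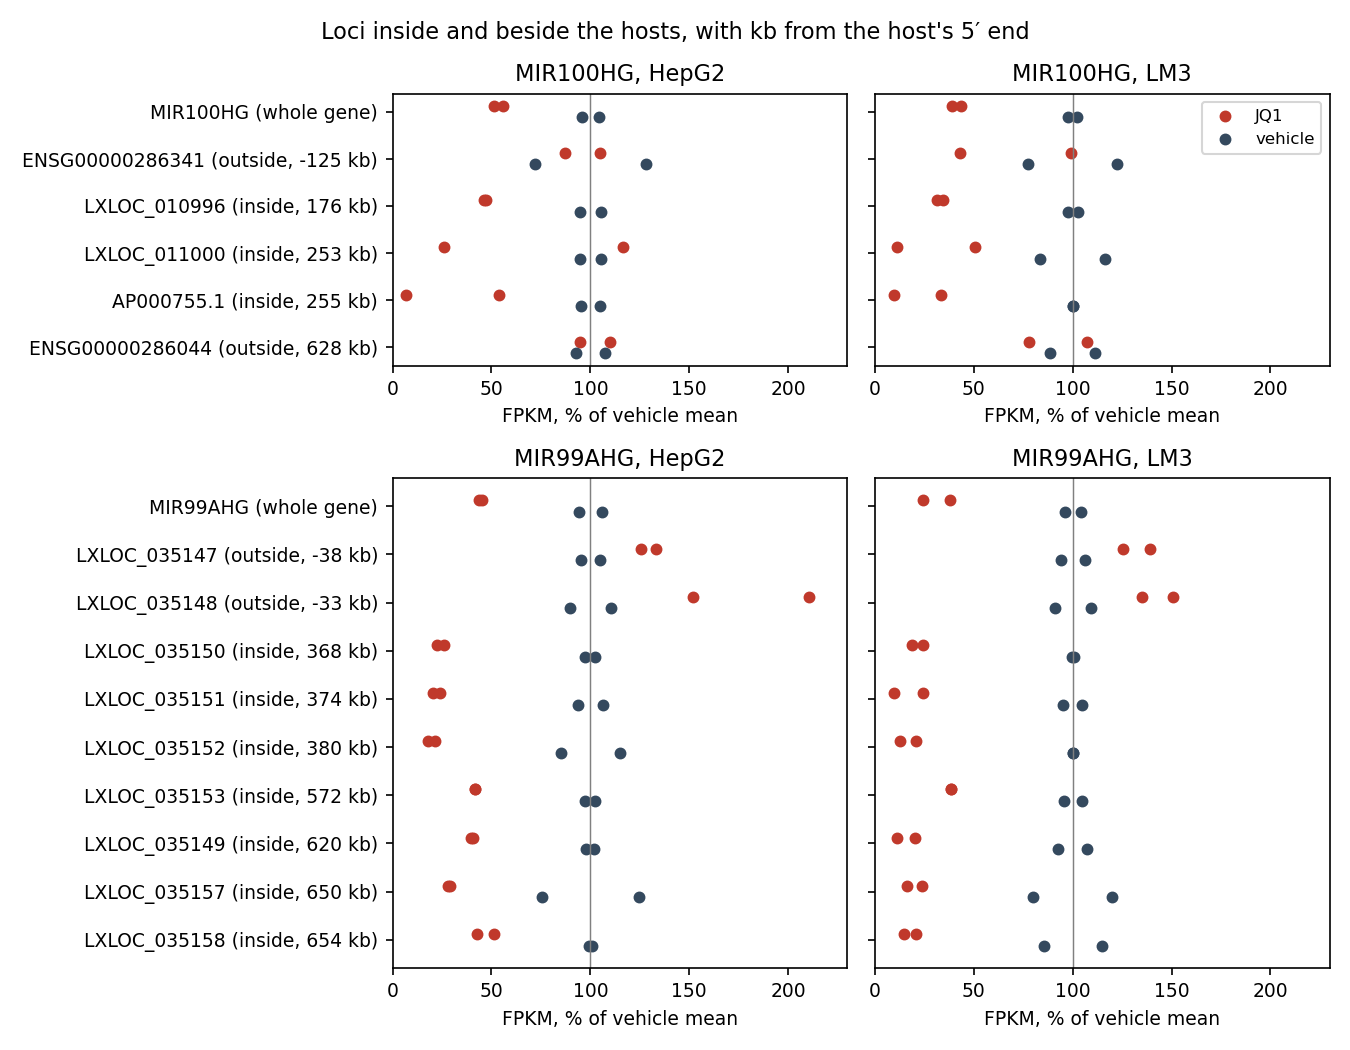
FPKM of each library as a percentage of the vehicle mean of the same locus and line, for the hosts, the same-strand loci inside them and the loci with values within 250 kb of them, labelled with the distance in kb from the host's 5′ end (negative is upstream). In LM3 all JQ1 points of loci inside the hosts lie left of the vehicle points; in HepG2 LXLOC_011000 overlaps, and LXLOC_035147 and LXLOC_035148 lie to the right with JQ1.

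The remaining cluster of these families, miR-99b, let-7e and miR-125a on chromosome 19, overlaps the antisense locus SPACA6-AS1. That locus lies on the strand opposite to the hairpins, so its level is not that of a transcript carrying them. It had 0.29 FPKM at most in any library and was not tested. Of the let-7 hosts with values, MIRLET7BHG was higher with JQ1 in both lines and the others were not called. MIRLET7BHG, on chromosome 22, which carries let-7a-3 and let-7b, had 16.63 and 18.56 FPKM in HepG2 JQ1 libraries, against 10.15 and 11.08 FPKM in HepG2 vehicle libraries. It rose by 0.70 on the log2 scale in HepG2 (SE 0.092, limma adjusted p = 0.0127), to 166% of vehicle. In LM3 it had 17.31 and 14.86 FPKM with JQ1, against 11.14 and 11.37 FPKM with vehicle, and rose by 0.49 (SE 0.11, limma adjusted p = 0.038). Both calls ended without the filter on low values. Of all loci tested, 10.8% in HepG2 and 7.92% in LM3 were called higher. MIRLET7IHG and MIRLET7A1HG, hosts of let-7i and let-7a-1, were not called in either line: MIRLET7A1HG had 3.11 and 3.45 FPKM with JQ1 and 3.51 and 3.14 FPKM with vehicle in HepG2.

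The mature sequence of let-7a is the same from MIR100HG, MIRLET7A1HG and MIRLET7BHG, and let-7b-5p, printed here as the product of the host that rose, shares its seed.
let-7b-5p, from MIRLET7BHG: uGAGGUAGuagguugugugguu
It differs from let-7a-5p by A17G and A19G, with the base of let-7a-5p first, and from let-7c-5p by A17G. The host of let-7a copies was thus lower with JQ1 for one gene, higher for another and not called for the last.

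Among other microRNA host genes, 69 of 85 listed had values. In HepG2, 6 of 28 tested (21.4%) were lower, 2 (7.14%) higher and 20 not called. Of all loci tested there, 14.2% were called lower and 10.8% higher. The list median was -0.065, against -0.0056 over all loci tested. In LM3, 4 of 29 (13.8%) were lower, 1 (3.45%) higher and 24 not called, where 15.4% of all loci tested were lower and 7.92% higher. The list median was -0.18, against -0.084 over all loci tested. In HepG2, MIR17HG, host of the MYC-linked miR-17 cluster, had 4.15 and 4.35 FPKM with JQ1 and 8.55 and 8.37 FPKM with vehicle, and fell by 0.92. It was the only gene of the list to fall further than MIR100HG in HepG2 on this log2 scale, and none fell further than MIR99AHG. As a percentage of vehicle, MIR1915HG also lay below MIR100HG in HepG2, at 47.5% against 53.5%. With a pseudocount of 0.1, too, MIR1915HG fell further there (-1.03 against -0.90). In LM3, none of the 29 fell as far as either host on this log2 scale. The lowest was MIR34AHG, host of the p53-induced miR-34a, which fell by 0.86 (limma adjusted p = 0.02). It had 0.82 and 0.58 FPKM with JQ1 and 1.72 and 1.62 FPKM with vehicle. As a percentage of vehicle, it was close to MIR100HG there, at 41.9% against 41.4%. PVT1, the MYC neighbour that also hosts microRNAs, fell by 0.68 in HepG2 and by 0.71 in LM3, with levels of 62.1% and 61% of vehicle. MIR1915HG fell by 0.88 in HepG2 and by 0.44 in LM3. MIR4435-2HG, which has a near-identical copy, CYTOR, and is therefore uncertain, fell by 0.50 in HepG2 and by 0.60 in LM3. MIR17HG was not called in LM3 (log2 fold change -0.55, limma adjusted p = 0.0703). Nor was MIR34AHG called in HepG2 (-0.14, limma adjusted p = 0.447). The LM3 calls of MIR34AHG, MIR4435-2HG and MIR1915HG ended without the filter, and that of MIR1915HG also under quantile normalization.

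**Figure D4:**
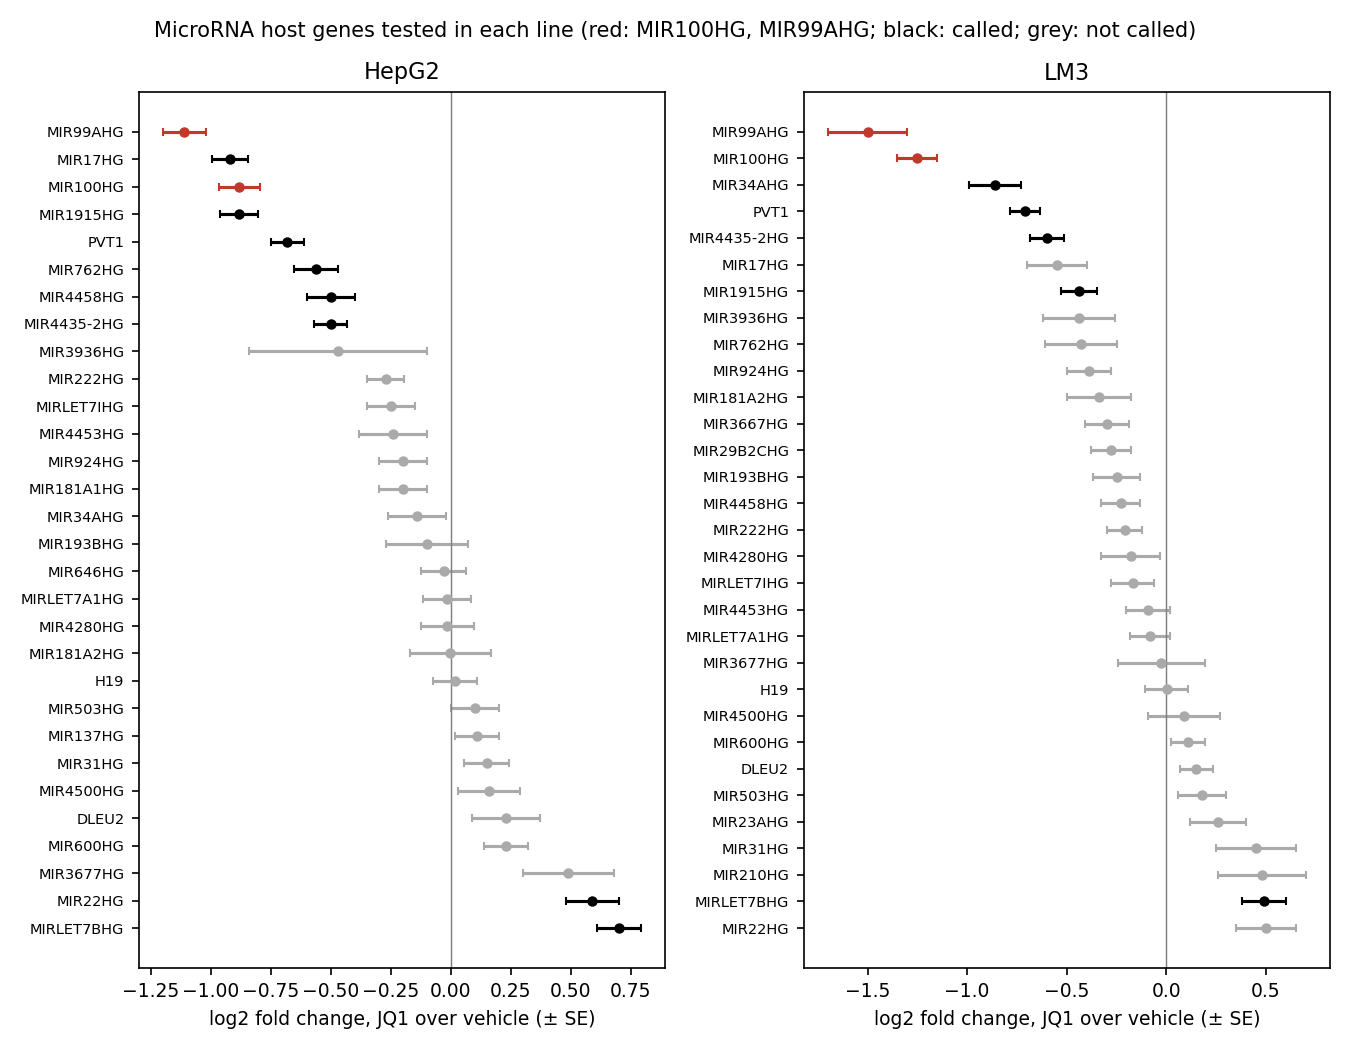
Log2 fold change, JQ1 over vehicle, with its SE, of every microRNA host gene tested in HepG2 and in LM3, in order of the change, with MIR99AHG and MIR100HG in red, other called genes in black and genes not called in grey. The largest falls are at the top; both hosts head the LM3 panel, at -1.50 and -1.25, and in HepG2 MIR17HG lies between them.

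The loci with the most similar profile over the 8 libraries were found from the root mean square difference of log2(FPKM + 0.5) values centred on each line's mean, among 907 loci with a symbol and at least 1 FPKM in both lines. For MIR100HG the 3 nearest were AC099811.1 (0.0698), PRECSIT (0.0837) and TM4SF1-AS1 (0.0857), where the median candidate was at 0.517. AC099811.1 averaged 1.17 FPKM with JQ1 and 2.55 FPKM with vehicle in HepG2, and 1.85 FPKM with JQ1 and 5.5 FPKM with vehicle in LM3. For MIR99AHG they were LINC01270 (0.0756), AP003119.1 (0.12) and BASP1-AS1 (0.148), with the median candidate at 0.642. LINC01270 averaged 1.22 FPKM with JQ1 and 3.11 FPKM with vehicle in HepG2, and 1.48 FPKM with JQ1 and 4.96 FPKM with vehicle in LM3. The hosts differed from each other by 0.154, which made MIR99AHG the 19th nearest to MIR100HG and MIR100HG the 5th nearest to MIR99AHG. PRECSIT, TM4SF1-AS1 and AP003119.1 averaged below 1 FPKM with JQ1 in both lines, so they passed the filter through their vehicle libraries. With a pseudocount of 0.1, HepG2 log2 fold changes were -1.07 for AC099811.1, -1.36 for PRECSIT and -0.87 for TM4SF1-AS1, against -0.90 for MIR100HG. The measure was computed in the libraries tested above, so it describes the same differences and is no further test.

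RefSeq lists 6 starts for each host. The most upstream start lies 134 kb from the 5′ end of the deposited row in MIR100HG and 142 kb in MIR99AHG. The windows below cover 250 bases before to 50 after that start. They are written 5′ to 3′ on the gene's strand, with the motif TATAAA in capitals, from RefSeq on GRCh38.p14. The MIR100HG window is chr11:122422822-122423121 on the minus strand and that of MIR99AHG chr21:16070238-16070537 on the plus strand.
MIR100HG start: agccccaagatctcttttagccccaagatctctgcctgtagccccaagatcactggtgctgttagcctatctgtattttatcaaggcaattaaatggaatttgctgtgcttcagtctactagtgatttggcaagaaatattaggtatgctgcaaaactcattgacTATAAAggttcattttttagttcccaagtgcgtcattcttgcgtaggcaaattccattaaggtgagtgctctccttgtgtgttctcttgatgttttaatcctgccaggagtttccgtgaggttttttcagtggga
MIR99AHG start: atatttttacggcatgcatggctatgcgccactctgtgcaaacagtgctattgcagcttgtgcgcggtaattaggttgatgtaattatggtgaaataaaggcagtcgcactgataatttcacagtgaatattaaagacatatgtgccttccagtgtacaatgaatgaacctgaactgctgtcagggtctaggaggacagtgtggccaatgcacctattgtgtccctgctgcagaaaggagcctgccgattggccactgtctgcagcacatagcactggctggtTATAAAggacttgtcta
TATAAA was found once in each window, with its first base at -85 for MIR100HG and at 33 for MIR99AHG relative to the start, where 11.5% of 35116 RefSeq windows of the same length hold it on either strand. Neither window held the E-box CACGTG (in 7.26% of windows), the AP-1 site TGACTCA (4.95%) or the GC box GGGCGG (45%), searched on both strands. The windows had 3 (MIR100HG) and 6 (MIR99AHG) CG dinucleotides and 41.7% and 46% GC, against medians of 14 and 58.7% over all windows. Which start these cells use was not measured, and any part of these windows in the falls above was not tested.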

How the data were processed

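Per the labels' protocols, total RNA was sequenced in paired ends after removal of ribosomal RNA. The values are FPKM, per the file headers, which the authors deposited with 2 decimals in separate tables for HepG2 and LM3. The submitters' processing notes name the aligner Bowtie, version 0.12.2, and as builds mm8 and hg19, with no role, whereas the coordinates follow GRCh38: of 8453 Ensembl IDs with values found in GENCODE 29, 99.9% had the same chromosome, 83.9% the same start and 84.3% the same end. For the counting tool and the annotation, nothing is given in the sources used here. Of 23161 loci listed, 7692 had a dash in place of values and were left out.

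limma 3.58.1 (R 4.3.3, trend and robust fitting) was run on log2(FPKM + 0.5) within each line, and over 8 libraries for the difference between lines, and checked on simulated data. Low values did not fall on whole read steps (28.9 to 45.2% within 0.1 of one), so no count test was run. Tables and plots used matplotlib 3.10.9, NumPy 2.4.6 and pandas 2.3.3 in Python 3.11.15. Alternatives were other pseudocounts, filters, scalings and fits, leaving out overlapping loci, a replicate block and leaving out each library. Both hosts overlap loci on their own strand, and they were kept where overlapping loci were left out. The genes and lists were chosen with earlier results of these data known. Named were all same-strand loci inside the hosts, the 3 most similar loci, the let-7 hosts and the 4 called microRNA hosts with the smallest p per line.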

Additional observations from a re-analysis of the deposited data

How the results depend on the processing

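Neither host changed direction under any alternative, and apart from leave-one-out fits the log2 fold changes lay between -0.995 and -0.84 (MIR100HG in HepG2), -1.29 and -1.17 (MIR100HG in LM3), -1.17 and -1.06 (MIR99AHG in HepG2) and -1.67 and -1.33 (MIR99AHG in LM3). Calls ended without the filter for MIR100HG in HepG2 (-0.88, limma adjusted p = 0.0524) and MIR99AHG in LM3 (-1.50, limma adjusted p = 0.113); the cause was not tested. Leave-one-out fits gave -0.94 to -0.82 and -1.19 to -1.02 in HepG2 (MIR100HG, MIR99AHG), and -1.33 to -1.17 and -1.76 to -1.24 in LM3, with limma adjusted p up to 0.0884, 0.0884, 0.107 and 0.117; they leave 1 library in a group, assumed to vary like the others. Loci called numbered 1480 in HepG2 and 1511 in LM3. Without the filter they were 819 and 825, with a filter of 1 FPKM 975 in HepG2, and on leaving out a library 0 to 475 in HepG2 and 0 in LM3; where none was called, 1679 and 1770 loci in HepG2 and 1525 to 2365 in LM3 had an unadjusted limma p under 0.05. Calls were higher with JQ1 for 34% of those in LM3, but for 47.6% after median centring of the libraries and 49.4% under quantile normalization.

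The difference between lines was called for 11 loci, and for 7 (pseudocount 0.1 or filter of 1 FPKM), 19 (pseudocount 1), 98 (no filter), 20 (centred), 5 (quantile), 18 (rescaled outside the 20 most abundant loci, an alternative chosen after seeing the data), 0 (overlapping loci left out; 391 at an unadjusted limma p under 0.05), 0 (replicate block; 505) and 0 to 3 in leave-one-out fits (431 to 689 unadjusted); neither host was called in any, and leave-one-out gave -0.45 to -0.29 (MIR100HG) and -0.65 to -0.13 (MIR99AHG). Same-numbered libraries deviated together with r = -0.035 in HepG2 and 0.13 in LM3. With so few libraries per group, these values cannot show whether the numbers pair the libraries. The replicate block called 1453 loci in HepG2 and 1215 in LM3, both hosts included. It ended the LM3 calls of MIRLET7BHG and MIR1915HG, and called LXLOC_011000 lower in LM3 (limma adjusted p = 0.037).

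Of 34 calls of other named loci, 16 were lost under some alternative other than leave-one-out, each of them without the filter. Uncalled changes near 0 turned sign: MIRLET7A1HG, centred or quantile-normalized (0.022 and 0.011 in HepG2, 0.0016 and 0.050 in LM3) and leave-one-out (-0.087 to 0.053 in HepG2); ENSG00000286044, rescaled (-0.0013 in HepG2), quantile-normalized (0.018 in LM3) and leave-one-out (-0.060 to 0.11 in HepG2, -0.29 to 0.092 in LM3); MIR34AHG in HepG2 (-0.28 to 9.8e-05, leave-one-out); and LXLOC_011000 in HepG2 (-1.31 to 0.18, leave-one-out). FPKM hold no depth, so counting error cannot be given.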
